A study of Homo sapiens with 30 samples.

Results

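SUGP1, its helicase partner DHX15 and 5 further splicing genes that carry a G-patch (SUGP2, RBM5, RBM10, RBM17 and GPKOW) were followed through 30 RNA-seq libraries of a human cell line. They were taken by name, with earlier results of these data already known, and are 7 of the 61487 genes in the deposited table. All 7 were found and all 7 passed the filter on low counts, which kept 31444 genes.

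The cells were eHAP FNLS, a haploid human line derived from a chronic myeloid leukaemia that carries FNLS, a cytosine base editor. Each culture received 2 nM pladienolide B (PB) or its solvent DMSO for 3 h. The groups were PHF5A 2xTL (a 6-nt insertion at T40-L41), SF3B1 T1080I, SUGP1 E554K and SUGP1 G603N, each with PB and with DMSO, and a control that carried a non-targeting sgRNA, with PB and with DMSO. Every group had 3 libraries. For a mutant these were 3 monoclonal lines, each sampled under both treatments, and for the control they were 3 replicates of 1 transduced line, so the spread among mutant libraries includes differences between clones and the spread among control libraries does not. All groups carried the editor, and each carried an sgRNA, that of the control being non-targeting. Libraries held 31592500 to 75037300 estimated counts, so the 7 genes were well covered, with 1082 to 29247 counts per gene and library. Of 9 haematopoietic marker genes, 8 lay under 1 CPM (a count scaled to the size of its library) in every library, PTPRC, CD34 and SPI1 among them. KIT, the remaining haematopoietic marker, ranged from 2.03 to 21.9 CPM. Of the mesenchymal markers, VIM ranged from 193 to 386 and FN1 from 71.7 to 268 CPM, while COL1A2, S100A4 and LUM reached at most 1.29, 1.47 and 0.168 CPM. The neural marker SOX2 ranged from 626 to 1178 CPM and the epithelial marker KRT18 from 18.4 to 68.3 CPM, while EPCAM reached at most 1.29 CPM. The markers thus did not place the cells in 1 of these types. The control DMSO library 3 stood above libraries 1 and 2 of its group in 6 of the 7 genes, by 1.24-fold to 1.56-fold over their mean, with DHX15 at 1.01-fold. Over 11998 genes the median of that ratio was 1.06, and 30.4% of them lay at or above 1.2.

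PB binds SF3B1 and PHF5A, subunits of the SF3b part of the U2 snRNP, in the pocket that holds the branch-site adenosine of an intron. DHX15 is a DEAH-box RNA helicase that pulls RNA out of protein complexes, among them spliceosomes and intron lariats, and it needs a partner to act well. G-patch proteins are such partners: the G-patch, a short glycine-rich motif, clamps a DEAH-box helicase in an RNA-gripping state. SUGP1 binds SF3B1 at the early spliceosome and brings DHX15 to it, and SF3B1 mutants found in cancer bind SUGP1 poorly. RBM5, RBM10 and RBM17 (SPF45) act in 3′ splice site choice and alternative splicing. GPKOW is the relative of yeast Spp2, the partner of the DEAH-box helicase Prp2 in that species, and SUGP2 is a relative of SUGP1 whose role is less well defined.

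The edited codons of SUGP1 are shown because they define the SUGP1 genotypes. Both lie in its C-terminal part, in or beside the G-patch. In the GENCODE 29 transcript ENST00000247001.9, of 14 exons and 645 codons on the minus strand of chromosome 19 (hg38), the codon changed in SUGP1 E554K lies in exon 12 at chr19:19277853-19277855 and that changed in SUGP1 G603N in exon 13 at chr19:19277049-19277051. The reference coding sequence is given in the transcript's direction, with 10 codons on each side and the edited codon in capitals. Each window crosses an exon junction, from exon 11 into 12 and from exon 12 into 13.
Codon changed in SUGP1 E554K: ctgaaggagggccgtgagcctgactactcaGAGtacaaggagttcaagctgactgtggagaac
Codon changed in SUGP1 G603N: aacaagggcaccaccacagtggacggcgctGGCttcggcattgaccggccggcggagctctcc
In both windows the reference codon encodes the residue that the genotype's name gives as the original. Gene-level counts do not show the edits themselves, so the values below describe how much of each transcript was present and not which allele it carried.

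Levels are given in CPM, counts per 1000000 in a library scaled by TMM, and compare libraries within a gene. Between genes, CPM divided by the deposited gene length in kb gives averages over 30 libraries of 53.3 for RBM10, 49.2 for DHX15, 25.2 for GPKOW, 19.99 for SUGP2, 19.0 for RBM17, 11.4 for SUGP1 and 6.73 for RBM5. Per kb, SUGP1 and RBM5 were thus the scarcest of the 7 transcripts and RBM10 and DHX15 the most abundant. Changes are log2 fold changes ± SE from edgeR's quasi-likelihood test over all 30 libraries, and a gene was called at a Benjamini-Hochberg adjusted p under 0.05 over the 31444 genes tested.

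**Figure D1:**
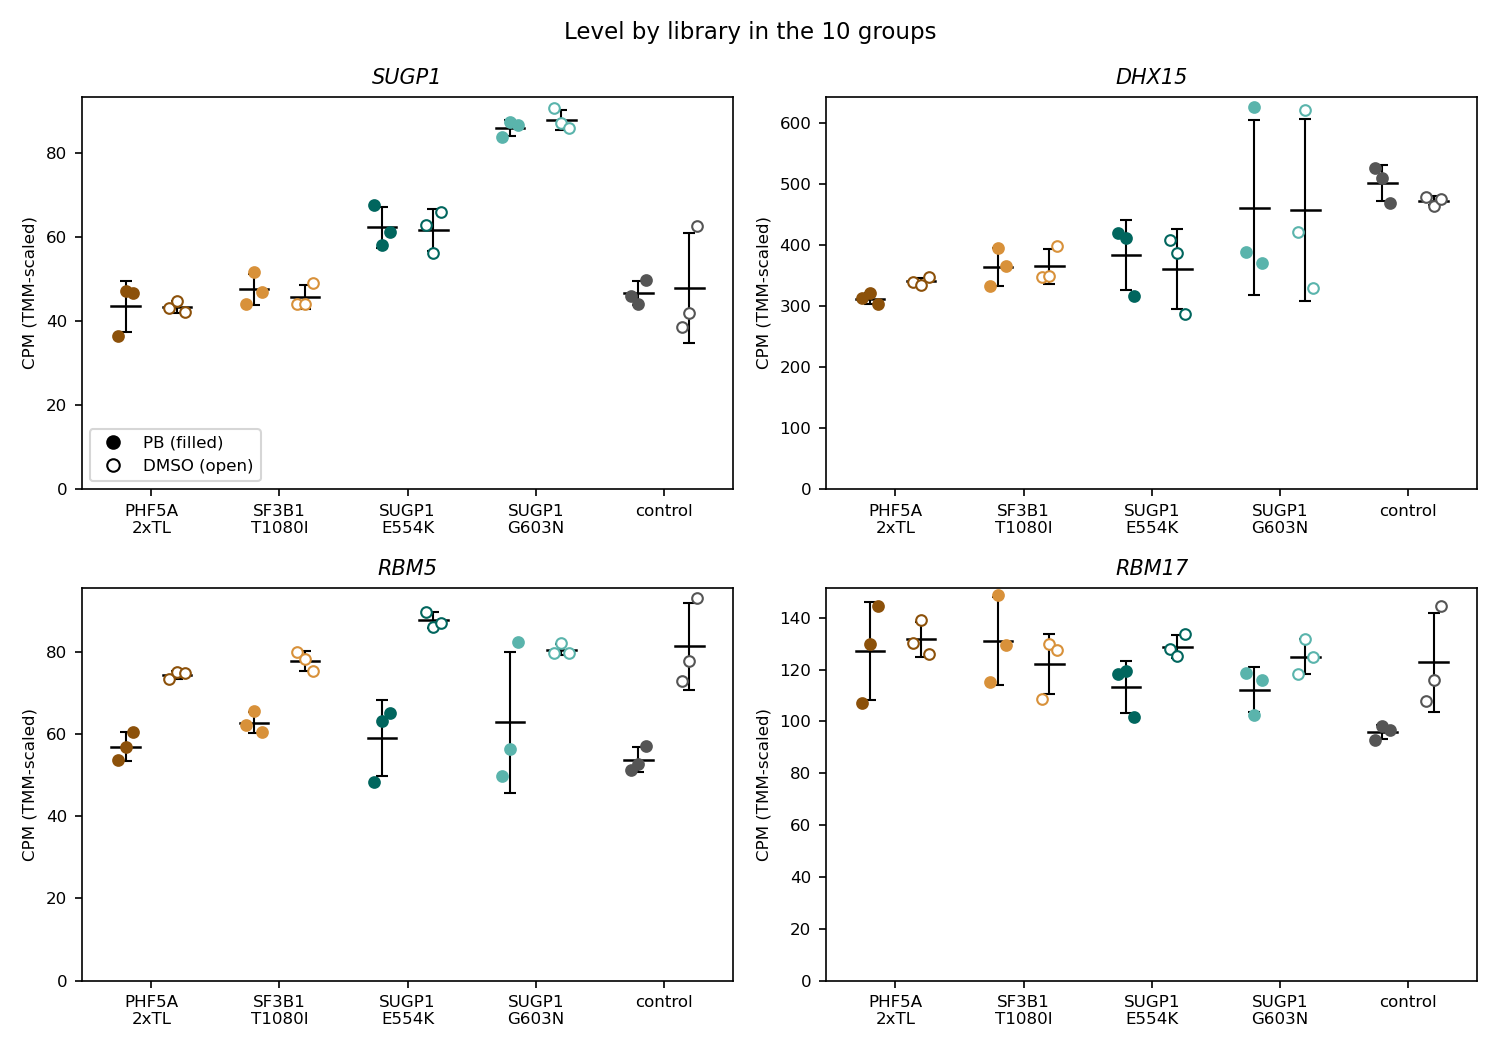
Level of SUGP1, DHX15, RBM5 and RBM17 in CPM (y axes, from 0) in each library of the 5 genotypes, PB filled and DMSO open, with the mean (bar) and SD (whisker) of 3 libraries. All 6 SUGP1 G603N libraries lie above every other library for SUGP1, and RBM5 lies lower with PB than with DMSO in every line but the third of SUGP1 G603N.

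SUGP1, the edited gene, is at 19276018 to 19320844 of chromosome 19 on the minus strand (ENSG00000105705). Its transcript was more abundant in SUGP1 G603N cells than in any other genotype. With DMSO it had 90.6, 87.1 and 86.0 CPM in the 3 SUGP1 G603N lines, against 38.7, 42.0 and 62.7 CPM in control. The groups did not overlap, and the highest control value was that of library 3. The change was 0.88 ± 0.13 (1.84-fold, adjusted p = 0.0123 by edgeR), the 1 call among the 7 genes in a comparison that called 0.0127% of all genes and 0.00954% as higher. With PB, SUGP1 had 83.8, 87.4 and 86.7 CPM in SUGP1 G603N lines, against 46.0, 44.2 and 49.9 CPM in control (0.88 ± 0.13, adjusted p = 0.0122 by edgeR), again the 1 call among the 7 genes where 0.00636% of all genes were called and 0.00318% as higher. The 2 comparisons use different libraries of the same clones, so they are not independent lines.

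These calls depended on the fit. With only the groups compared in the model, the adjusted p was 0.852 in DMSO and 0.0697 in PB at nearly the same fold (0.87 in both). Without control DMSO library 1 it was 0.155, without library 2 it was 0.223, and without library 3 the change was 1.13 with an adjusted p of 2.26e-05. In PB, leaving out any single library of the comparison gave an adjusted p of 0.0555 to 0.112, with changes of 0.84 to 0.93.

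In SUGP1 E554K cells the transcript lay between those levels. It had 62.8, 56.2 and 65.9 CPM with DMSO, against 38.7, 42.0 and 62.7 CPM in control, and the ranges overlapped through control library 3 alone. The difference was 0.37 ± 0.13 and was not called (unadjusted p = 0.00989, adjusted p = 1.00 by edgeR). It was 0.60 without control library 3 and 0.24 without control library 1, not called in either case (adjusted p = 0.691 and 1.00 by edgeR). None of the 7 genes was called in this comparison, 2 had an unadjusted p under 0.05 (SUGP1 and DHX15), DESeq2 called none of them either, and 0% of all genes were called. With PB the SUGP1 E554K lines had 67.7, 58.2 and 61.1 CPM, against 46.0, 44.2 and 49.9 CPM in control, with no overlap (0.42 ± 0.13, adjusted p = 0.904 by edgeR). That comparison called 0.00318% of all genes and none of the 7, of which SUGP1 and DHX15 had an unadjusted p under 0.05, and DESeq2 called none of them. Set against each other in DMSO, SUGP1 E554K was lower than SUGP1 G603N in all 3 lines, by 0.51 ± 0.13, which was not called (unadjusted p = 0.000597, adjusted p = 0.842 by edgeR, interval of the difference -0.77 and up to -0.25). That comparison called 0% of all genes, with 3 calls by DESeq2. By edgeR 1323 of the 31444 genes tested had an unadjusted p under 0.05, a smaller share than that threshold would give without any difference.

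The SF3b mutants kept SUGP1 at levels that overlapped control. PHF5A 2xTL lines had 36.5, 47.2 and 46.8 CPM with PB and 43.1, 44.8 and 42.2 CPM with DMSO. SF3B1 T1080I lines had 44.2, 51.6 and 46.9 CPM with PB and 44.2, 44.0 and 49.0 CPM with DMSO. In the order of the 10 group means, both SUGP1 G603N groups stood first and both SUGP1 E554K groups next. The gap in ranges fell between SUGP1 G603N and SUGP1 E554K, and every other pair of neighbours overlapped.

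PB itself left SUGP1 without a call in all 5 genotypes. Its change lay between -0.03 in control and 0.06 in SF3B1 T1080I, and the 95% intervals together ran from -0.29 up to 0.32. The neighbouring gene on the opposite strand, MAU2, a loader of cohesin whose annotated span overlaps that of SUGP1 by 164 bases, did respond. MAU2 fell to 33.4 ± 3.90 CPM with PB in control, against 64.0 ± 9.52 CPM with DMSO (SD, n = 3 libraries each; -0.94, adjusted p = 4.39e-05 by edgeR). It also fell in SUGP1 E554K cells (-0.50, adjusted p = 0.0233 by edgeR). It was not called in SUGP1 G603N (-0.37, adjusted p = 0.120), PHF5A 2xTL (-0.08) or SF3B1 T1080I (-0.09).

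The SUGP1 difference in SUGP1 G603N was larger than the median of the genes around it. Of the 10 nearest tested protein-coding genes, none was called in SUGP1 G603N against control in either treatment. Those comparisons called only 0.0127% (DMSO) and 0.00636% (PB) of all genes, so the lack of calls says little. The neighbours had a median change of 0.04 in DMSO (-1.17 to 1.84) and of 0.15 in PB (-0.76 to 1.34). Over the 148 genes within 10 Mb that averaged at least 10 CPM, the median difference from control was 0.08 to 0.20 in the 3 SUGP1 G603N lines, where SUGP1 itself stood at 0.89 to 0.90 (means of PB and DMSO, log2 CPM). In the SUGP1 E554K lines the flanking median was 0.10 to 0.15, beside 0.29 to 0.48 for SUGP1. The comparison with flanking genes was chosen after values had been seen and carries no test.

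DHX15, the helicase that SUGP1 partners, lies on the minus strand of chromosome 4 at 24517441 to 24584550 (ENSG00000109606). Its level differed more between lines than between treatments. PHF5A 2xTL lines had 313, 321 and 303 CPM with PB and 340, 335 and 347 CPM with DMSO. SF3B1 T1080I lines had 333, 394 and 365 CPM with PB and 347, 350 and 398 CPM with DMSO. Every one of these 12 libraries was below every control library.
SUGP1 E554K lines had 420, 412 and 317 CPM with PB and 408, 387 and 286 CPM with DMSO. In both treatments line 3 was the lowest and all 3 lines were below control.
SUGP1 G603N lines had 388, 626 and 370 CPM with PB and 421, 621 and 329 CPM with DMSO. Line 2 was the highest of all libraries in both treatments, and lines 1 and 3 were below every control library. Control had 526, 509 and 469 CPM with PB and 478, 465 and 475 CPM with DMSO. The 3 SUGP1 G603N clones thus spread on both sides of the control.

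PHF5A 2xTL against control in PB gave the only DHX15 call, at -0.68 ± 0.18 (adjusted p = 0.0322 by edgeR). It was the 1 call among the 7 genes, in a comparison that called 2.78% of all genes and 0.582% as lower. Leaving out any single library of that comparison ended the call, with an adjusted p of 0.0798 to 0.204. The other 4 alternatives (DESeq2, its type of size factors, no low-count filter and only the groups compared) kept it. In DMSO the same genotype had a change of -0.47 ± 0.18 (adjusted p = 0.956 by edgeR), and that comparison called none of the 7 genes and 0.00954% of all genes. DESeq2 called none of the 7 there either, and DHX15 alone had an unadjusted p under 0.05. SF3B1 T1080I against control had -0.46 ± 0.18 in PB (adjusted p = 0.172, and 0.00797 with only the groups compared in the model) and -0.37 ± 0.18 in DMSO (adjusted p = 1.00 by edgeR), where 0% of all genes were called, none of the 7 by DESeq2, and DHX15 alone of the 7 had an unadjusted p under 0.05. SUGP1 E554K against control had -0.39 in PB and -0.39 in DMSO, neither called, and the DMSO value was -0.23 without the line 3 library. In SUGP1 G603N, whose lines went both ways, the changes were -0.12 and -0.05.

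PB against DMSO gave DHX15 changes of -0.12 in PHF5A 2xTL, 0.00 in SF3B1 T1080I, 0.09 in SUGP1 E554K, 0.01 in SUGP1 G603N and 0.09 in control, none called. Their 95% intervals together ran from -0.47 up to 0.44.

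The 3 genes whose log2 CPM was most like that of DHX15 across the 30 libraries, among 9854 genes with at least 10 CPM on average, were LAP3 (an aminopeptidase, Pearson's r = 0.927), WDR1 (an actin-filament disassembly factor, r = 0.907) and PIGG (an enzyme of GPI anchor synthesis, r = 0.906). All 3 are on chromosome 4, as is DHX15. The libraries behind these values share clones and scaling, so the r values are descriptions.
Genes around DHX15 moved with it by line. Over the 25 genes within 10 Mb that averaged at least 10 CPM, the median difference from the control mean was -0.41 to -0.33 (log2 CPM, mean of PB and DMSO) in PHF5A 2xTL lines, where DHX15 stood at -0.59 to -0.57. It was -0.41 to -0.22 in SF3B1 T1080I lines (DHX15 -0.52 to -0.35) and -0.58 to -0.36 in SUGP1 E554K lines (DHX15 -0.69 to -0.23). In the 3 SUGP1 G603N lines the flanking median was -0.41, 0.62 and -0.62, beside -0.27, 0.36 and -0.48 for DHX15. Of the 12 mutant lines, 11 had DHX15 below every control replicate and 1 above, and the flanking genes lay on the same side in each. DHX15 minus its flanking median ranged from -0.26 to 0.14 over the 12 lines, and was negative in all 3 PHF5A 2xTL and all 3 SF3B1 T1080I lines. It was also negative in SUGP1 G603N line 2 (-0.26, the lowest) and SUGP1 E554K line 3 (-0.12), and positive in the other SUGP1 lines.

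The shift was clearest at one end of the chromosome. In 10-Mb bins, the first 50 Mb of chromosome 4 had bin medians of 0.42 to 0.69 in SUGP1 G603N line 2 and of -0.69 to -0.09 in the other 11 mutant lines. Beyond 50 Mb the medians were -0.09 to 0.09 in SUGP1 G603N line 2 and -0.33 to 0.29 in the other 11. In the 3 control replicates they were -0.15 to 0.09 in the first 50 Mb and -0.16 to 0.08 beyond. SUGP1 E554K line 3 was below the control mean in all 18 bins, with 9 of them below -0.2, so its lower values were not confined to that end. SUGP1 G603N line 3 was also below the control mean in all 18 bins, with 5 of them below -0.2. This view and its boundary were chosen after values had been seen, and what part the rest of the chromosome arm had in the DHX15 level was not tested. All of these values, and the DHX15 call, are set against 1 control line, so a lower level in the 11 mutant lines and a higher level in that control line cannot be told apart. The DNA copy number of the lines was not analysed here.

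**Figure D2:**
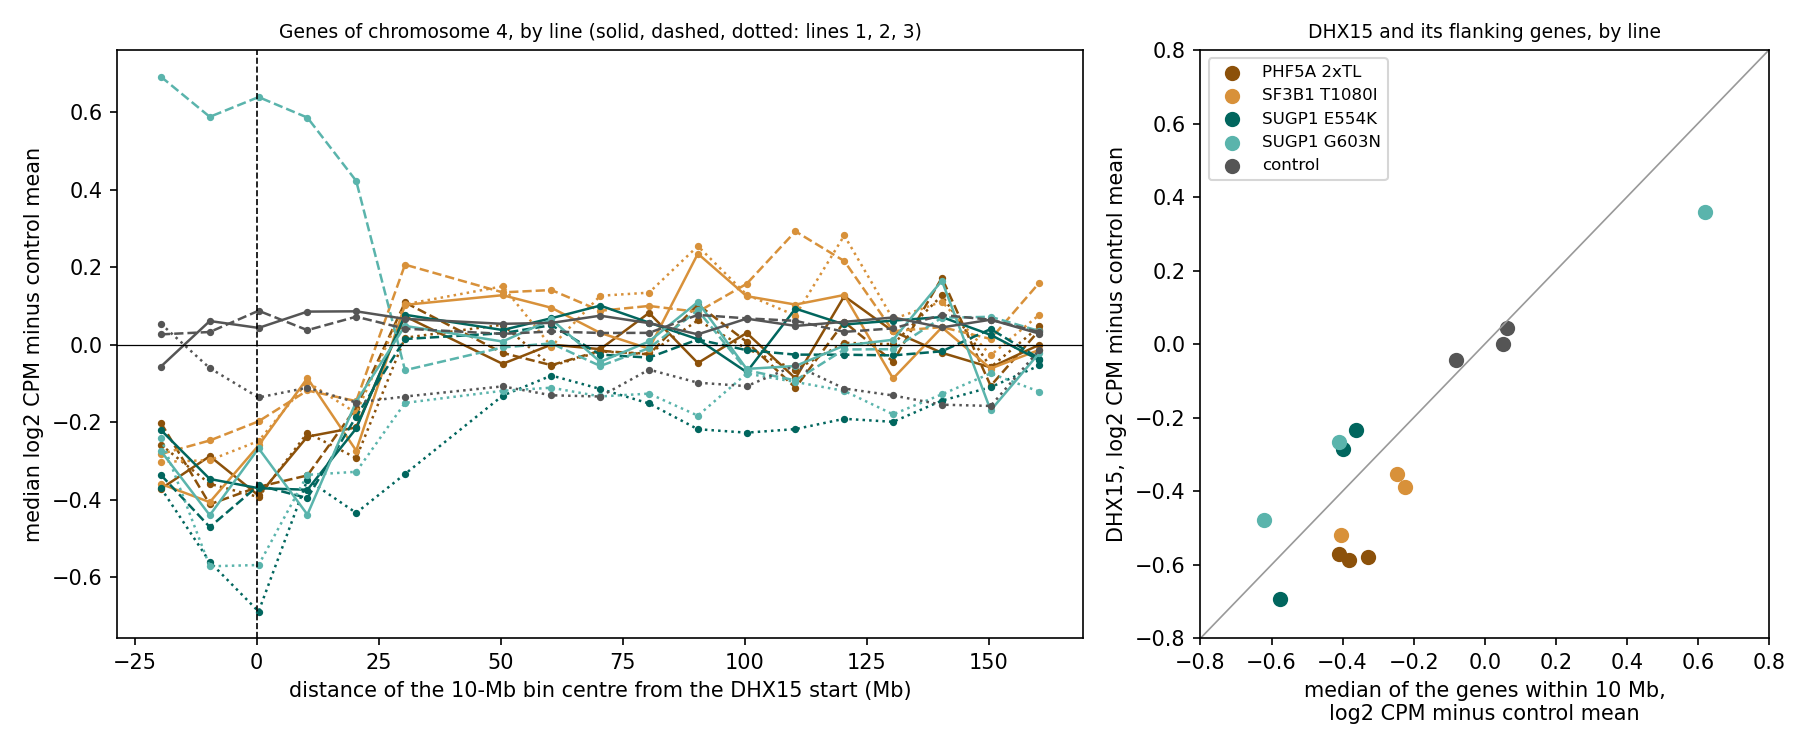
Left, median log2 CPM minus the control mean of genes in 10-Mb bins of chromosome 4, against the distance of the bin's centre from the start of DHX15 in Mb, 1 curve per line (coloured by genotype as at the right, control included). Right, DHX15 against the median of its flanking genes within 10 Mb in each line, on the same scale, with the line of equality. The 11 lines with low DHX15 sit at the lower left and SUGP1 G603N line 2 at the upper right. Beyond about 25 Mb from DHX15 the curves come closer together, with SUGP1 E554K line 3 still below 0 in every bin.

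RBM5, an alternative-splicing regulator of apoptosis genes such as FAS, lies on the plus strand of chromosome 3 at 50088908 to 50119021 (ENSG00000003756). It was the member that fell with PB. In control it had 51.2, 52.8 and 57.1 CPM with PB, against 72.8, 77.8 and 93.2 CPM with DMSO, with no overlap (-0.60 ± 0.13, adjusted p = 0.00659 by edgeR). It was the 1 member called of 7, in a comparison that called 4.44% of all genes and 3.34% as lower. Without control DMSO library 3, the library that stood apart, the change was -0.51 with an adjusted p of 0.0521.

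In SUGP1 E554K cells RBM5 had 48.3, 63.3 and 65.1 CPM with PB, against 89.8, 86.1 and 87.0 CPM with DMSO (-0.57 ± 0.13, adjusted p = 0.0103 by edgeR). It was again the 1 member called, where 4.39% of all genes were called and 3.15% as lower. The call was lost with only the groups compared in the model (adjusted p = 0.148) and without PB library 1 (-0.45, adjusted p = 0.0816).
In SUGP1 G603N cells it had 49.8, 56.3 and 82.3 CPM with PB, against 79.7, 82.0 and 79.6 CPM with DMSO. Lines 1 and 2 were lower with PB and line 3 was not, and the change was -0.36 ± 0.13 and not called (adjusted p = 0.150 by edgeR). No member was called there, RBM5 alone had an unadjusted p under 0.05, DESeq2 called none of the 7, and 3.85% of all genes were called. With the line as a replicate block the adjusted p was 0.0216, and without PB library 3 the change was -0.60 with an adjusted p of 0.00586.

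In the SF3b mutants RBM5 was lower with PB in all 6 lines, but the changes were not called. PHF5A 2xTL lines had 53.6, 56.8 and 60.4 CPM with PB, against 73.3, 75.03 and 74.9 CPM with DMSO (-0.39 ± 0.13, unadjusted p = 0.00736, adjusted p = 1.00 by edgeR). SF3B1 T1080I lines had 62.1, 65.5 and 60.5 CPM with PB, against 79.9, 78.2 and 75.2 CPM with DMSO (-0.31 ± 0.13, unadjusted p = 0.0272, adjusted p = 1.00 by edgeR). PB and DMSO libraries did not overlap in either genotype. Each of these comparisons called 0.00318% of all genes, none of the 7 by edgeR or DESeq2, and RBM5 was the member with an unadjusted p under 0.05.
The difference in RBM5 response from control was 0.21 ± 0.19 in PHF5A 2xTL, 0.29 ± 0.19 in SF3B1 T1080I, 0.02 ± 0.19 in SUGP1 E554K and 0.24 ± 0.19 in SUGP1 G603N. None was called, and the 95% intervals reached from -0.16 up to 0.66 in the SF3b mutants. The data therefore neither separate the RBM5 response of the SF3b mutants from that of control nor show that they are alike. These comparisons share the control libraries.

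Line by line, the RBM5 values can be set beside the genes that fell with PB in control. There were 919 such genes that averaged at least 4 CPM, with the members of the set, RBM5 included, left out. Their median PB minus DMSO difference was -0.16, -0.07 and -0.12 in PHF5A 2xTL lines 1 to 3, where RBM5 had -0.45, -0.40 and -0.31. In SF3B1 T1080I lines the medians were -0.11, 0.01 and -0.10, and RBM5 had -0.36, -0.26 and -0.31. In these 6 lines, 3.48% to 19.8% of the 919 genes had a change at or below that of RBM5.
In SUGP1 E554K lines the medians were -0.65, -0.59 and -0.62, and RBM5 had -0.89, -0.44 and -0.42. In SUGP1 G603N lines the medians were -0.65, -0.67 and -0.46, and RBM5 had -0.68, -0.54 and 0.05. Line 3 of SUGP1 G603N thus had the median nearest to 0 of the SUGP1 lines, and 97.1% of the 919 genes were at or below RBM5 in it. Over the 166 genes called higher with PB in control, the same line had a median of 0.75, against 0.43 to 0.60 in the other 5 SUGP1 lines, so its median was the highest of the 6 SUGP1 lines in both sets of genes. The genes were selected in the control libraries, so the control values (medians of -0.64, -0.71 and -0.79, with RBM5 at -0.51, -0.56 and -0.71) are not a measure of their response.

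**Figure D3:**
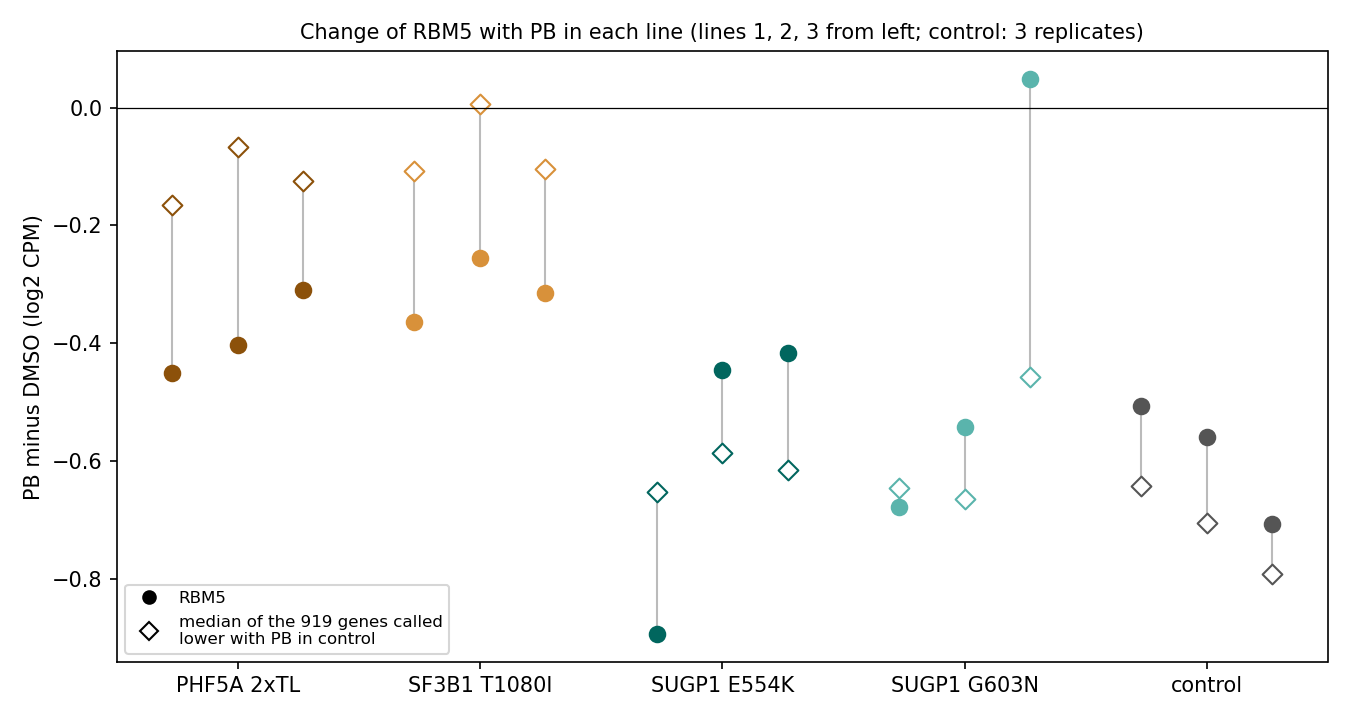
PB minus DMSO difference in log2 CPM (y axis) for RBM5 (filled circles) and the median of the 919 genes called lower with PB in control (open diamonds) in each line, grouped by genotype on the x axis. In lines of PHF5A 2xTL or of SF3B1 T1080I the diamonds lie between -0.16 and 0.01 and RBM5 lies below them, and in SUGP1 G603N line 3 RBM5 stands at 0.05.

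RBM5 overlaps RBM6, a related RNA-binding gene on the same strand, over 11138 bases, so reads in the shared stretch cannot be assigned with certainty. RBM6 was not called with PB in any genotype, with changes of -0.09 in PHF5A 2xTL, -0.01 in SF3B1 T1080I, 0.01 in SUGP1 E554K, -0.02 in SUGP1 G603N and -0.10 in control. The genes most like RBM5 over the 30 libraries were PLEKHG4B (r = 0.870), HAUS8, a subunit of the augmin complex of the spindle (r = 0.842), and FAM86DP, a pseudogene on chromosome 3 (r = 0.835). In the order of RBM5 group means the 5 DMSO groups stood above the 5 PB groups. The ranges of neighbours were apart only between SF3B1 T1080I DMSO and PHF5A 2xTL DMSO, since the PB range of SUGP1 G603N reached up to 82.3 CPM.

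RBM17, which binds SF3B1 and U2AF2 in 3′ splice site recognition, lies on the plus strand of chromosome 10 at 6088987 to 6117457 (ENSG00000134453). In PB-treated cells it was higher in SF3B1 T1080I than in control. SF3B1 T1080I lines had 115, 149 and 129 CPM with PB, against 93.0, 98.1 and 96.8 CPM in control with PB (0.45 ± 0.12, adjusted p = 0.0260 by edgeR). It was the 1 member called, in a comparison that called 4.43% of all genes and 3.81% as higher. The call was lost without a low-count filter (adjusted p = 0.0829), without SF3B1 T1080I PB library 2 or 3, and without any single control PB library (adjusted p of 0.0517 to 0.218 over those 5). Over the 45 genes within 10 Mb of RBM17 that averaged at least 10 CPM, the median difference from the control mean was 0.08 to 0.23 in SF3B1 T1080I lines and -0.03 to 0.02 in control replicates (log2 CPM, mean of PB and DMSO), beside 0.05 to 0.36 and -0.11 to 0.13 for RBM17. This view was chosen after values had been seen, and the part of the flanking shift in the RBM17 call was not tested.
PHF5A 2xTL lines had 107, 130 and 145 CPM with PB, against the same control values, which also did not overlap (0.41 ± 0.12, adjusted p = 0.0659 by edgeR). DESeq2 called it (adjusted p = 0.0226), as did edgeR on the groups compared alone (0.0427) and without PHF5A 2xTL PB library 1 (0.0241). The 2 SUGP1 genotypes with PB also had RBM17 ranges above that of control with PB, and neither was called. The changes were 0.24 ± 0.12 in SUGP1 E554K (adjusted p = 0.931 by edgeR) and 0.23 ± 0.12 in SUGP1 G603N (adjusted p = 0.819 by edgeR). In DMSO none of the 4 mutants differed from control by a call. All 4 mutants with PB were set against 1 control line. A higher RBM17 level in the mutants and a lower one in that control line cannot be told apart.

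Within control, RBM17 had 93.0, 98.1 and 96.8 CPM with PB, against 107.9, 115.9 and 144.5 CPM with DMSO. The ranges did not overlap, and the change of -0.36 ± 0.12 was not called (adjusted p = 0.0988 by edgeR). With the replicate block the adjusted p was 0.0247, and without control DMSO library 3, the highest, the change was -0.24. The other genotypes had changes of -0.05 in PHF5A 2xTL, 0.10 in SF3B1 T1080I, -0.19 in SUGP1 E554K and -0.15 in SUGP1 G603N, none called. Control with PB was the lowest of the 10 RBM17 groups, and its range lay below that of the next, SUGP1 G603N with PB. RBM17 has processed pseudogenes, and the counts are fractional, so some of its reads may have been divided among copies.

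The remaining 3 members were called in no comparison. SUGP2 (chromosome 19, 18990888 to 19034023, minus strand, ENSG00000064607) ranged from 131 to 204 CPM over all libraries, its lowest value in SUGP1 E554K line 3 with PB and its highest in control DMSO library 3. RBM10 (chromosome X, 47144869 to 47186813, plus strand, ENSG00000182872), the close relative of RBM5, ranged from 155 to 245 CPM, its lowest in PHF5A 2xTL line 1 and its highest in SUGP1 G603N line 3, both with PB. GPKOW (chromosome X, 49113389 to 49123801, minus strand, ENSG00000068394) ranged from 29.7 to 53.0 CPM, its lowest in PHF5A 2xTL line 1 with PB and its highest in SUGP1 G603N line 2 with DMSO. None of these 3 genes was called in any of the 18 comparisons, by edgeR or by DESeq2, and none had an unadjusted p under 0.05 in any.
The smallest was for GPKOW in SUGP1 G603N against control with DMSO, at 52.3, 53.0 and 47.2 CPM against 32.8, 40.9 and 49.8 CPM (0.30 ± 0.16, unadjusted p = 0.0694, adjusted p = 0.964 by edgeR). For SUGP2 it was PB in SUGP1 E554K, with 170, 157 and 131 CPM against 191, 175 and 155 CPM with DMSO (-0.19 ± 0.10, adjusted p = 0.402 by edgeR). SUGP2 was lower with PB in all 3 lines of both SUGP1 genotypes. For RBM10 the changes with PB were -0.08 to 0.03 over the 5 genotypes, with 95% intervals that together reached -0.35 and 0.29.
RBM5 and RBM10 thus differed in their values with PB in control, at -0.60 for RBM5 and 0.03 for RBM10, a difference between genes that was not tested.

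The genes most like SUGP2 were ELOVL1, CMTR1 and TPCN1 (r of 0.855, 0.837 and 0.825). CMTR1, a cap methyltransferase, carries a G-patch too. Most like RBM10 were CENPB, QTRT1 and RABL6 (0.857, 0.832 and 0.831), most like RBM17 were AXIN1, LTO1 and WIZ (0.860, 0.851 and 0.849), most like GPKOW were PAF1, PSPC1 and DMWD (0.871, 0.845 and 0.805), and most like SUGP1 were HIP1R, GGT7 and CDK16 (0.838, 0.833 and 0.832). No member was among the 3 genes most like another member. Over the 21 pairs of members, r ran from -0.36 (DHX15 with RBM17) up to 0.61 (SUGP1 with GPKOW).

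**Figure D4:**
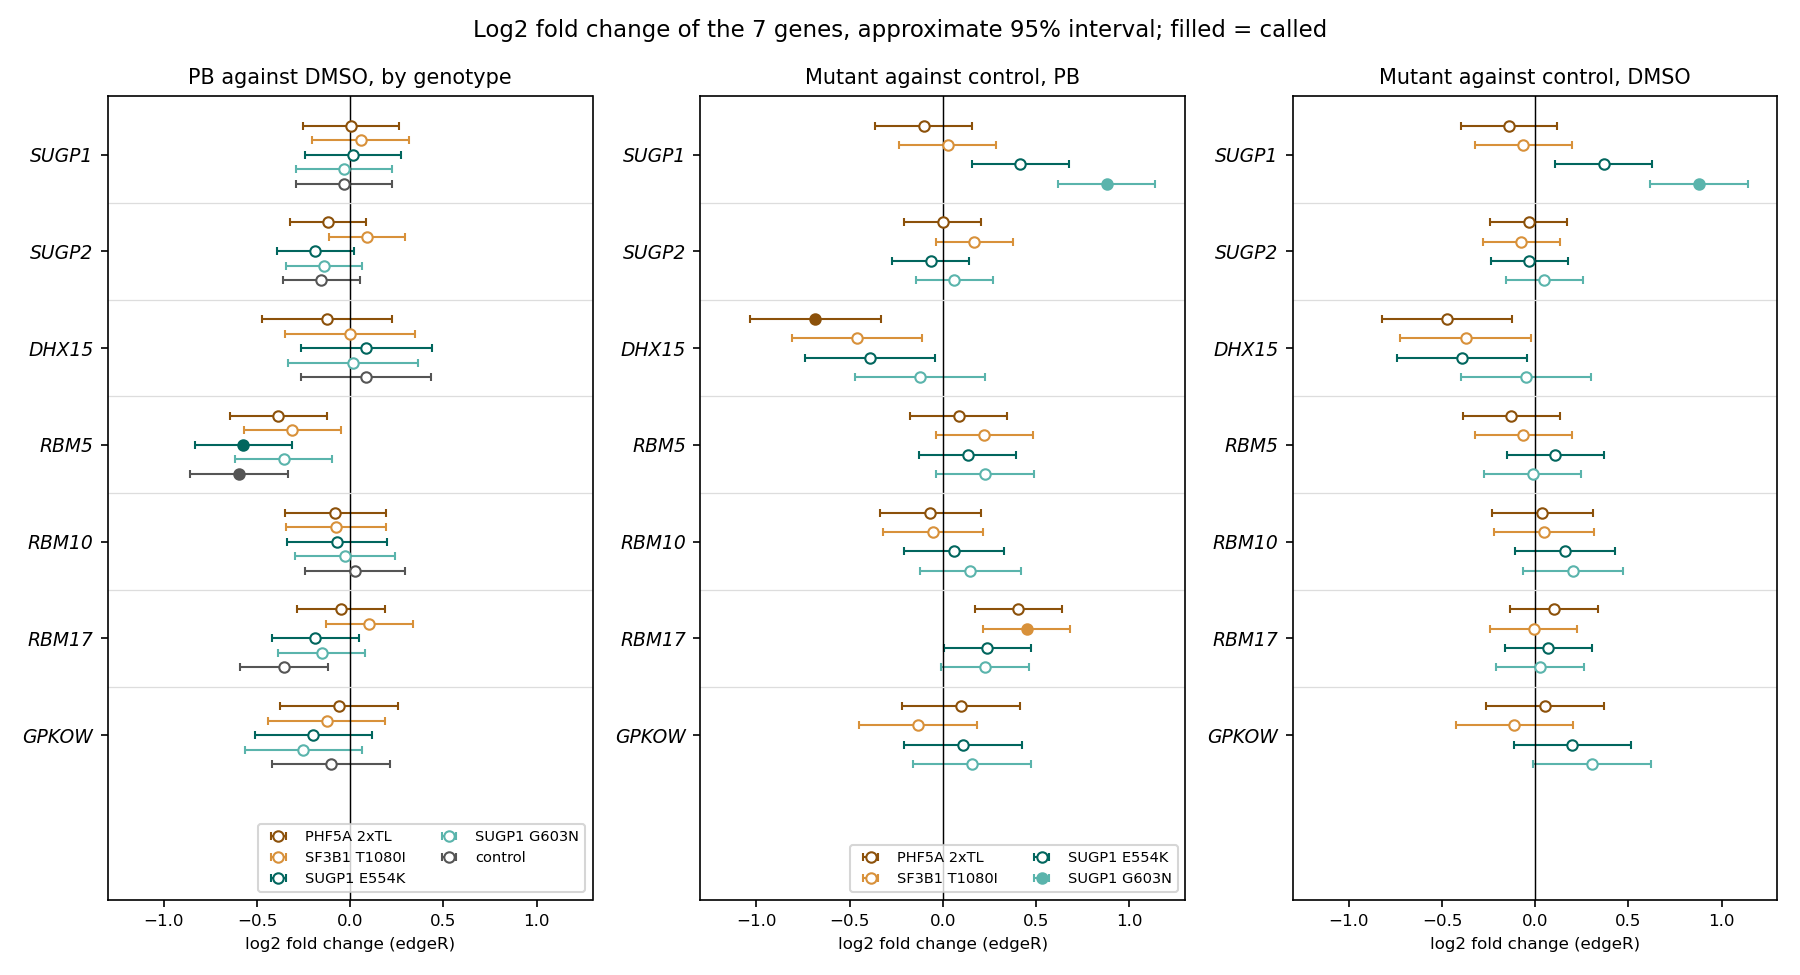
Log2 fold change (x axes) of the 7 genes with approximate 95% intervals for PB against DMSO in 5 genotypes (left), and for each mutant against control with PB (middle) and with DMSO (right). Filled points were called at an adjusted p under 0.05 (edgeR): RBM5 with PB in SUGP1 E554K and control, SUGP1 in SUGP1 G603N in both treatments, and, with PB, DHX15 in PHF5A 2xTL and RBM17 in SF3B1 T1080I.

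The 4 tests of a difference in PB response between a mutant and control called none of the 7 genes. They called 0.274% of all genes for PHF5A 2xTL, 0.321% for SF3B1 T1080I, and 0% for SUGP1 E554K and for SUGP1 G603N. The member with an unadjusted p under 0.05 was RBM17 in SF3B1 T1080I, and DESeq2 called no member. For the SUGP1 genotypes 649 (E554K) and 881 (G603N) of the 31444 genes tested had an unadjusted p under 0.05 by edgeR. Both are a smaller share than that threshold would give without any difference, and DESeq2 called 0 for each. The comparisons of each mutant and of PB share the control libraries.
As a group, the 7 genes had a median change with PB of -0.08 in PHF5A 2xTL, 0.00 in SF3B1 T1080I, -0.19 in SUGP1 E554K, -0.14 in SUGP1 G603N and -0.10 in control, beside a median over all genes tested of 0.00, 0.00, 0.01, 0.03 and 0.02 in the same genotypes.

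Among 17 other human G-patch genes, all tested, PB lowered GPATCH2L in SUGP1 E554K (-0.94 ± 0.13), SUGP1 G603N (-0.93 ± 0.13) and control (-0.69 ± 0.13, adjusted p = 0.00107 by edgeR). NKRF, a repressor of NF-κB that also partners DHX15, rose in control (0.33 ± 0.09, adjusted p = 0.0333 by edgeR). The other 15 were not called with PB in control. PB called 4.44% of all genes in control, 4.39% in SUGP1 E554K and 3.85% in SUGP1 G603N. None of the 17 was called in PHF5A 2xTL or SF3B1 T1080I, where only 0.00318% of all genes were called in each. These counts are therefore not a result about G-patch genes as a group. In PB, SF3B1 T1080I had higher GPATCH2, GPATCH8 and PINX1 than control (0.65, 0.34 and 0.66), in a comparison that called 4.43% of all genes. For PHF5A 2xTL in PB, where 2.78% of all genes were called, no gene of the list was called, and the difference between these 2 genotypes was not tested.

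Among 12 other spliceosomal RNA helicases, 3 were called with PB in each of SUGP1 E554K, SUGP1 G603N and control, where 4.39%, 3.85% and 4.44% of all genes were called, in that order. DDX42, which binds SF3B1, fell (-0.75, -0.63 and -0.77 in that order of genotypes), with 141 ± 5.57 CPM with PB against 240.3 ± 26.8 CPM with DMSO in control (SD, n = 3 libraries each). DHX35 fell (-0.999, -1.10 and -1.08), and DDX39B, also called UAP56, rose (0.58, 0.66 and 0.54). None of the 12 was called with PB in PHF5A 2xTL or SF3B1 T1080I, where only 0.00318% of all genes were called in each. For DDX42 the difference in response itself was called, at 0.67 ± 0.15 for PHF5A 2xTL minus control (adjusted p = 0.0413) and 0.73 ± 0.15 for SF3B1 T1080I minus control (adjusted p = 0.0191, edgeR).
Among 19 SF3b, SF3a and 3′ splice site partners, U2SURP (-0.58 in SUGP1 E554K, -0.66 in SUGP1 G603N and -0.56 in control) and the branch-point binding protein SF1 (-0.50, -0.55 and -0.55) fell with PB. SF3B1, the target of the drug, rose in control (0.36 ± 0.10, adjusted p = 0.0416 by edgeR). PB called 4.39% of all genes in SUGP1 E554K, 3.85% in SUGP1 G603N and 4.44% in control. None of the 19 was called with PB in the SF3b mutants, where only 0.00318% of all genes were called in each. The list medians were -0.07 (G-patch), 0.03 (helicases) and 0.12 (SF3b and partners) with PB in control, beside 0.02 over all genes.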

How the data were processed

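Per the labels' protocols, total RNA was poly(A)-selected, made into CORALL libraries and sequenced in 150-base pairs. UMI-tools, STAR, SAMtools 1.10 and the hg38 build are named in the submitters' processing notes. The sources used here do not give how reads were counted, over which annotation or with which strand setting. The authors deposited 1 table of estimated counts per gene, not normalized; 65.5% of its values above 0 are fractional. Reads of overlapping or near-identical genes may therefore be divided among them.

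Counts were rounded and tested with edgeR 4.0.16 (R 4.3.3): filterByExpr with the 10 groups, TMM, a mean per group over 30 libraries, and 18 contrasts, each adjusted over 31444 genes and called under 0.05. SEs are derived from the F value, and 95% intervals are 1.96 SE. Log2 CPM values of single libraries use a prior count of 2. Scripts were tested on simulated data. Symbols were found for 61369 identifiers, and coordinates come from GENCODE 29. The 7 genes and the lists of related genes were chosen with earlier results of these data known. Named genes are the 7 members, the 3 genes most like each by Pearson's r, and list genes called, up to 4 per comparison and direction.

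The labels tie each mutant line's PB and DMSO libraries to 1 clone, so the numbers pair: same-numbered libraries correlated at 0.43 to 0.84 in mutants and 0.21 to 0.44 in control (deviations from group means, 11998 genes). Lines are nested in genotype, so mutant against control has no block. Alternatives were DESeq2 1.42.0, DESeq2-type size factors, no filter, only the groups compared, the block, and each library left out. P-values of the main fit, those for PB in control included, use 1 estimate of the spread per gene, shared by all 30 libraries. To that estimate the control adds only the spread among replicates of 1 line.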

Additional observations from a re-analysis of the deposited data

Results flagged for a closer look

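RBM17 met a rule on differing groups: its PB minus DMSO difference was positive in all 3 SF3B1 T1080I lines (0.08, 0.20 and 0.02 in log2 CPM) and negative in all 3 control replicates (-0.21, -0.24 and -0.58). The difference in response was 0.458 ± 0.17 (unadjusted p = 0.0115), which was not called after adjustment over all genes (adjusted p = 0.434 by edgeR). Over the alternatives it ran from 0.34 to 0.55 and its adjusted p from 0.119 to 0.907. Its lowest value was that without control DMSO library 3.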

How the results depend on the processing

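Where a member had an unadjusted p under 0.05 by edgeR in a comparison, its change kept its direction under all these alternatives. The direction of the other changes, many of them close to none, was not followed. Counts of the 7 genes called that moved were as follows. With only the groups compared, the count was 0 for PB in SUGP1 E554K, 0 for SUGP1 G603N against control in each treatment, and 2 (DHX15 and RBM17) for PHF5A 2xTL and for SF3B1 T1080I against control in PB. DESeq2 gave 2 for PHF5A 2xTL in PB, and no filter gave 0 for SF3B1 T1080I in PB. The replicate block gave 2 for PB in control (RBM5 and RBM17) and 1 for PB in SUGP1 G603N (RBM5), and changed no other member's call. Leaving out each library gave 0 to 1 calls for PB in control, SUGP1 E554K and SUGP1 G603N, for SUGP1 G603N against control in DMSO, and for PHF5A 2xTL and SF3B1 T1080I against control in PB, and 0 for SUGP1 G603N against control in PB. The other 11 comparisons kept a count of 0 throughout. The causes were not tested.

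Counts over all genes moved more: PB called 663 to 3095 genes in control (1395 as reported), 78 to 3757 in SUGP1 E554K (1381) and 1 to 2964 in SUGP1 G603N (1211), the lowest of the SUGP1 values with only the groups compared, and 335 to 1887 for PHF5A 2xTL (874) and 598 to 3136 for SF3B1 T1080I (1394) against control in PB. Each call among the 7 genes rests on 3 libraries a group, with a median SE over the 7 genes of 0.13 in log2.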
